A study of Mus musculus with 16 samples.

Results

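Tissue kallikrein Klk1 and 3 relatives from the same gene cluster, Klk1b21, Klk1b24 and Klk1b27, were followed in mouse skin. The 4 genes were picked because their signal was higher after 4-hydroxytamoxifen, so the changes between days are given as a description, with no test. Every probe set annotated to exactly 1 of these genes was taken, which gave 4 genes of 12393 on the array and 6 probe sets of 22690. Klk1 has 3 of them (1415837_at, 1448107_x_at and 1455977_x_at), Klk1b21 has 1451607_at, Klk1b24 has 1420770_at and Klk1b27 has 1421587_at. All 6 passed the filter on dim signal, which asks for a value above the 40th percentile of the array on at least 2 arrays. Klk1b27 passed through 3 arrays alone, 1 transgenic array at day 1 and both wild-type arrays at day 7.

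The transgenic mice were of the D2 line of K14ΔNβ-cateninER, in which a truncated, stabilised β-catenin fused to a drug-binding receptor domain is made under the keratin 14 promoter, active in basal keratinocytes. The wild-type mice were C57BL/6, and the strain of the transgenic mice is not given in the labels. In comparisons between genotypes, the transgene and a possible difference in strain therefore cannot be told apart. Both genotypes received 4-hydroxytamoxifen for 0, 1 or 7 days, with 2, 3 and 3 transgenic arrays and 3, 3 and 2 wild-type arrays. All arrays read total RNA of skin, on the Affymetrix Mouse 430 A platform. Of the 16 labels, 3 name a single mouse, among them both wild-type day 7 arrays, and the other labels speak of mice, so pooling of animals is possible there and is not stated. The labels do not tie arrays to separate animals, and the p-values below cover the spread between samples, technical or not. No array of vehicle-treated skin was used, and within a genotype effects of the drug, of handling and of time cannot be told apart.

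Tissue kallikrein is a secreted serine protease that cuts kininogen to release kinins, small peptides that widen vessels and make them leak. It is best known from salivary gland, kidney and pancreas. In the mouse the gene stands in a long row of near-copies, the Klk1b genes, whose products differ in what they cut. Products of Klk1b21, Klk1b24 and Klk1b27 are known in the mouse from Leydig cells of the testis. Because the copies resemble each other, a probe made for one can bind RNA of another, and the suffix "_x_at" on 2 of the 3 Klk1 probe sets marks probes that also match other transcripts. Probe sequences were not used here, so how much of a signal comes from which copy was not tested.

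In the RefSeq annotation of the GRCm38.p6 build, Klk1 lies at chr7:44225360-44229622 on the plus strand, at one end of a cluster of 24 genes that spans 284.6 kb. Of these, 14 are protein-coding and 10 are pseudogenes. Counted from the Klk1 start site, the start sites of Klk1b24, Klk1b21 and Klk1b27 lie at -37.12, -123.1 and -173.1 kb, with other family members in between. The 250 bases before each start site, from RefSeq on GRCm38.p6, are shown because the drug is a ligand of the oestrogen receptor, and members of that receptor family bind AGGTCA-like letters. Capitals mark AGGTCA or its reverse complement TGACCT.
Klk1, chr7:44225110-44225359, plus strand: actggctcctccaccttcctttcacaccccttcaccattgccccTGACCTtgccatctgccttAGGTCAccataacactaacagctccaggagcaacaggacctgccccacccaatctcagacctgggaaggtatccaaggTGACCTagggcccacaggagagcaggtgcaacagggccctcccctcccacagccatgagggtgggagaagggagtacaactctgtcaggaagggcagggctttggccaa
Klk1b21, chr7:44102042-44102291, plus strand: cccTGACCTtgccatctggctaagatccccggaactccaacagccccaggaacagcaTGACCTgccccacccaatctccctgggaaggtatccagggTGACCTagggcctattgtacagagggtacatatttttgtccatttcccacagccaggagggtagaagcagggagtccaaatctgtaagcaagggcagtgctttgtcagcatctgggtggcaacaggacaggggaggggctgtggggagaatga
Klk1b24, chr7:44187986-44188235, plus strand: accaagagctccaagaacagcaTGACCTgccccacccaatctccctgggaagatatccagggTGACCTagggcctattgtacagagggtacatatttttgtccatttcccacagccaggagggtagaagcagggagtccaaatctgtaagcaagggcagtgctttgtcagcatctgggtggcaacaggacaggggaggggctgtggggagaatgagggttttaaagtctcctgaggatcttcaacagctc
Klk1b27, chr7:44052040-44052289, plus strand: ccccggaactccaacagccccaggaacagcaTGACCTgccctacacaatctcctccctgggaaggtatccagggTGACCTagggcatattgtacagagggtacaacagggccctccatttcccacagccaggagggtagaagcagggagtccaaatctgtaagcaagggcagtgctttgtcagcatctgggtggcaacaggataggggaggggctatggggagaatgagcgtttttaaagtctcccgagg

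The half-site AGGTCA, searched on both strands, occurred in all 4 of these stretches: 3 times for Klk1, 3 times for Klk1b21, 2 times for Klk1b24 and 2 times for Klk1b27. It occurred in 11 of the 14 promoters of the protein-coding family, against 14% of all 32851 promoters in the table. The family's copies share their sequence, so they are not independent examples. A complete oestrogen response element, the letters GGTCA and TGACC with 3 bases of any kind between them, occurred in 0 of the 14 and in 0.0639% of all promoters. The AP-1 letters TGANTCA were in 0 of 14 too, against 6.75% of all promoters. The steroid receptor half-site TGTTCT was found for 1 of the 4 genes, Klk1b24, for 2 of the 14, and in 16.1% of all promoters. A run of TTTAAA was present for Klk1b24 and Klk1b27, in 12 of 14 family promoters and in 12.1% of all. These matches describe letters in a window and say nothing of binding.

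The 3 relatives were closer to each other than to Klk1 in these stretches. In the best local alignment Klk1b21 and Klk1b24 were identical at 210 of 214 positions, 98.1%, with a shared run of 162 bases. Klk1b27 matched Klk1b21 at 93.0% and Klk1b24 at 90.4%, with a longest shared run of 89 bases for both pairs. Klk1 matched Klk1b21, Klk1b24 and Klk1b27 at 78.3%, 76.7% and 80.9%, with no shared run over 20 bases. Pairs of 1 of the 4 genes and another gene of the family ranged from 75.5% to 85.9%.

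Intensities below are scaled so that every array has the same trimmed mean. A probe set's level is never set against another probe set's, since probes differ in brightness. On the scaled arrays the 40th percentile lay between 101 and 132. The arrays' trimmed means before scaling ranged from 359 to 547, the Gapdh signal at its 3' end was 0.884 to 1.26 times that at its 5' end, and the correlation between arrays of a group ranged from 0.9735 to 0.986. The keratin genes Krt14 and Krt10 read 6121 or more on every array, and Esr1, whose receptor domain the transgene carries, read 80.7 to 408 on the 8 transgenic arrays and 13.3 to 49.9 on the 8 wild-type arrays.

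**Figure D1:**
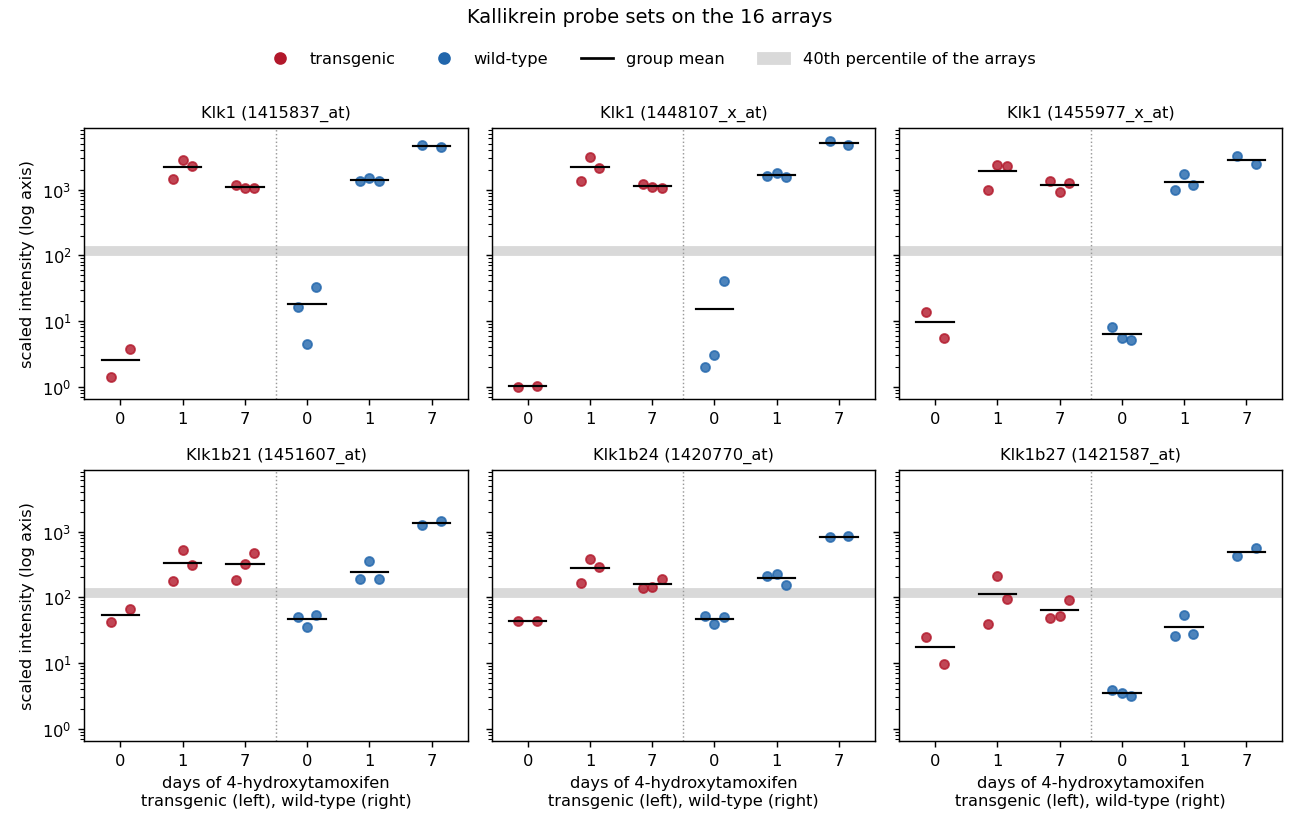
Scaled intensity (log axis) of the 6 kallikrein probe sets on each array, by day of 4-hydroxytamoxifen, with transgenic mice left and wild-type mice right of the dotted line. Points are arrays, bars are group means, and the grey band is the range of the arrays' 40th percentiles. All day 0 points lie below the band, and the wild-type day 7 points are the highest of each panel.

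Klk1 was at the bottom of the scale in untreated skin and bright in all treated skin of both genotypes. In transgenic skin its probe set 1448107_x_at read 0.990 and 1.03 at day 0. At day 1 it read 1374, 3102 and 2153, and at day 7 it read 1213, 1100 and 1056. Transgenic skin was thus highest at day 1, where replicate 2 exceeded the others, and the 3 day 7 arrays lay close together below all of the day 1 arrays. In wild-type skin the same probe set read 2.02, 3.04 and 40.9 at day 0, 1634, 1763 and 1572 at day 1, and 5549 and 4752 at day 7. Here day 7 was the highest, and no 2 days overlapped. With no transgene in wild-type mice, the higher signal after the drug was present without the fusion protein.

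The other Klk1 probe sets ran the same way. In transgenic skin 1415837_at, whose name carries no mark of shared probes, read 1.40 and 3.72 at day 0, 1441, 2794 and 2316 at day 1, and 1170, 1071 and 1043 at day 7. In wild-type skin it read 16.3, 4.52 and 33.3 at day 0, 1350, 1482 and 1340 at day 1, and 4805 and 4458 at day 7. Both genotypes overlapped at day 1 and lay far apart at day 7, with all 3 transgenic arrays below both wild-type arrays. For 1455977_x_at, transgenic arrays read 13.5 and 5.47 at day 0, 993, 2349 and 2314 at day 1, and 1366, 921 and 1244 at day 7. The wild-type arrays read 8.19, 5.60 and 5.20 at day 0, 991, 1720 and 1191 at day 1, and 3251 and 2410 at day 7. In this probe set transgenic days 1 and 7 overlapped, and the gap between genotypes at day 7 was the smallest of the 3.

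Ordered by mean, 1448107_x_at was highest in wild-type day 7 skin (5151 ± 563, n = 2), then in transgenic day 1 (2210 ± 865, n = 3), wild-type day 1 (1656 ± 97.2, n = 3) and transgenic day 7 (1123 ± 80.9, n = 3; all SD). Transgenic and wild-type day 1 arrays overlapped and have no order, and wild-type day 1 lay above transgenic day 7 in this probe set and in 1415837_at, but overlapped it in 1455977_x_at. Wild-type day 0 (15.3 ± 22.1, n = 3) and transgenic day 0 (1.01 ± 0.0297, n = 2) were both far below the 40th percentile, where differences have little meaning.

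On the log2 scale, with 32 added to every intensity, the changes were large. From day 0 to day 1 in transgenic skin, the 3 Klk1 probe sets differed by 5.44 to 6.01, and in wild-type skin by 4.87 to 5.25. To day 7 the differences were 4.85 to 5.13 in transgenic skin and 6.21 to 6.87 in wild-type skin. Since day 0 readings are close to 0, these sizes depend on the added value. With 8 in place of 32, 1448107_x_at differed by 7.87 and 6.97 in transgenic skin and by 6.57 and 8.19 in wild-type skin at days 1 and 7, and with an added value 4 times as high as 32 by 4.11, 3.28, 3.65 and 5.21.

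The 3 relatives were higher after the drug too. Klk1b21 read 42.7 and 66.2 on transgenic day 0 arrays, 179, 518 and 313 at day 1, and 186, 325 and 466 at day 7. On wild-type arrays it read 49.3, 35.3 and 53.4 at day 0, 188, 362 and 188 at day 1, and 1250 and 1454 at day 7. The treated transgenic groups overlapped almost wholly, and both wild-type day 7 arrays stood well above every other array. Klk1b24 read 43.7 and 43.3 in transgenic skin at day 0, 163, 384 and 284 at day 1, and 139, 144 and 193 at day 7. In wild-type skin it read 51.7, 38.5 and 50.1 at day 0, 209, 224 and 154 at day 1, and 812 and 865 at day 7. Its 2 wild-type day 7 arrays agreed closely with each other and exceeded all the rest.

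Klk1b27 cleared the 40th percentile on 3 arrays alone. It read 25.0 and 9.81 on transgenic day 0 arrays, 39.0, 210 and 92.6 at day 1, and 48.1, 51.2 and 90.1 at day 7. The wild-type arrays read 3.82, 3.53 and 3.20 at day 0, 25.6, 53.0 and 27.2 at day 1, and 427 and 553 at day 7. Those 3 were transgenic day 1 replicate 2 and the 2 wild-type day 7 arrays, and for Klk1b27 the values of all other groups are close to the floor of the array.

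The log2 differences from day 0 to day 1 in transgenic skin were 2.00 for Klk1b21, 1.97 for Klk1b24 and 1.40 for Klk1b27, and in wild-type skin 1.78, 1.52 and 0.90 in the same order. To day 7 they were 1.98, 1.32 and 0.94 in transgenic skin and 4.15, 3.47 and 3.87 in wild-type skin. All 6 probe sets of the 4 genes were above every day 0 array of their genotype at both later days. Such separation upward was seen for 17.3% and 32.1% of all 13890 tested probe sets at transgenic days 1 and 7, and for 20.7% and 20% at wild-type days 1 and 7. The genes were picked on these contrasts, so nothing is read from the counts.

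Between day 1 and day 7 the group means went opposite ways in the 2 genotypes, in a contrast that was not tested. In transgenic skin the day 7 mean was 0.501, 0.508 and 0.624 times the day 1 mean for Klk1 (1415837_at, 1448107_x_at and 1455977_x_at), 0.968 times for Klk1b21 and 0.572 times for Klk1b24. Only 1415837_at and 1448107_x_at had day 7 arrays that all lay below the day 1 arrays, a downward separation seen in 22% of all probe sets. In wild-type skin the day 7 mean was 3.33, 3.11 and 2.18 times the day 1 mean for the same Klk1 probe sets, 5.50 times for Klk1b21 and 4.29 times for Klk1b24. For Klk1b27, below the 40th percentile on most of these arrays, no ratio is given. All 6 probe sets separated upward in wild-type skin, as did 17.7% of all probe sets. For Klk1b21 the small transgenic log2 difference of -0.02 was 0.33 when transgenic day 1 replicate 2 was left out, and 0.30 when the first transgenic day 7 array was. For Klk1b27 the log2 difference of -0.47 was -0.010 when transgenic day 1 replicate 2 was left out.

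Single arrays moved all 6 probe sets together at day 1, while at day 7 Klk1 and its relatives ordered the arrays differently. Replicate 2 was the highest of the 3 arrays in all 6 probe sets at transgenic day 1 and again at wild-type day 1. At transgenic day 7, replicate 1 was the highest for the 3 Klk1 probe sets, and replicate 3 for Klk1b21, Klk1b24 and Klk1b27. At wild-type day 7 the split was the same, with replicate 1 highest for Klk1 and replicate 2 for the 3 relatives.

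The comparison between genotypes was tested with limma across all 13890 probe sets, with Benjamini-Hochberg adjustment and a threshold of 0.05. At day 0, 0 of the 6 probe sets passed, against 0.0072% of all probe sets, and 1 had an unadjusted p under 0.05. At day 1, 0 of 6 passed, against 1.07% of all, and 2 had an unadjusted p under 0.05. All 6 means were higher in transgenic skin at day 1, with the genotypes overlapping in every one, where 11.2% of all probe sets were higher without overlap. The difference was 0.59 for 1415837_at (95% interval 0.13 to 1.04, adjusted p = 0.131) and 0.96 for Klk1b27 (0.22 to 1.70, adjusted p = 0.130), a probe set mostly below the 40th percentile. For 1448107_x_at it was 0.34, with an interval from -0.25 to 0.92 and an adjusted p of 0.491.

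At day 7 the 5 probe sets of Klk1, Klk1b21 and Klk1b24 were all lower in transgenic skin past the threshold, against 17.7% of all probe sets lower and 37% changed in either direction. Treated arrays of both genotypes also served to pick the genes, so the tests at days 1 and 7 are not independent of that choice. The median difference of the 5 was -2.05, and that of all probe sets was 0.04. Klk1b27 is left out of these counts, because it would not have cleared the filter without the wild-type day 7 arrays, where it is high. Klk1 averaged 1095 ± 66.7 in transgenic skin and 4631 ± 245 in wild-type skin with 1415837_at (SD, n = 3 and 2), a log2 difference of -2.05 ± 0.23 (SE, limma adjusted p = 8.7e-06). With 1448107_x_at it averaged 1123 ± 80.9 and 5151 ± 563, a difference of -2.16 ± 0.30 (adjusted p = 4.97e-05). With 1455977_x_at it averaged 1177 ± 230 in transgenic skin and 2830 ± 595 in wild-type skin, a difference of -1.25 ± 0.30 (adjusted p = 0.00457). That last call was lost without wild-type day 7 replicate 1, where the difference was -1.03 and the adjusted p 0.0654.

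The relatives were lower as well. Klk1b21 averaged 326 ± 140 in transgenic skin and 1352 ± 144 in wild-type skin at day 7, a difference of -2.03 ± 0.36 (SE, limma adjusted p = 0.000503). Klk1b24 averaged 158 ± 29.7 and 838 ± 37.5, with -2.20 ± 0.24 (adjusted p = 6.63e-06). Klk1b27 averaged 63.2 ± 23.4 in transgenic skin, below the 40th percentile on all 3 arrays, and 490 ± 89.0 in wild-type skin. Its log2 difference of -2.47 is given as a description, for the same reason. As a share of the wild-type mean, transgenic skin held 23.6%, 21.8% and 41.6% for the Klk1 probe sets, 24.1% for Klk1b21 and 18.9% for Klk1b24. In these 5 the genotypes did not overlap, which held downward for 28.1% of all probe sets. Each wild-type mean rests on 2 arrays, and in whole skin fewer cells that make the RNA and less RNA per cell cannot be told apart.

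**Figure D2:**
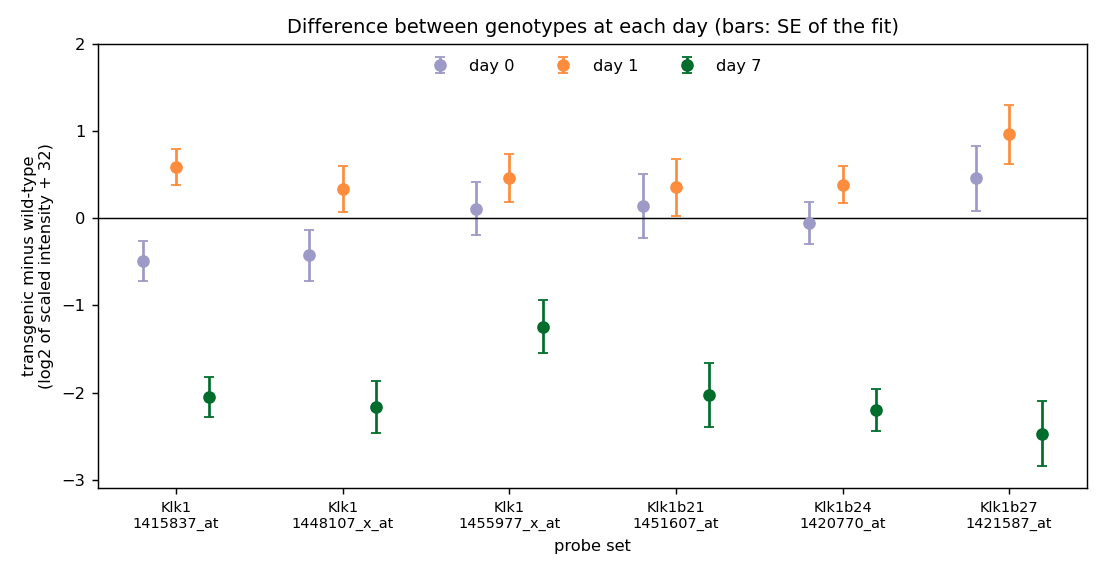
Transgenic minus wild-type, in log2 of scaled intensity + 32, for the 6 probe sets at days 0, 1 and 7 of 4-hydroxytamoxifen. Points are differences of group means and bars the SE of the fit. Day 1 points lie between 0.34 and 0.96, and day 7 points between -2.47 and -1.25.

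The change from day 0 was set against genotype in the same fit. Both changes that enter this comparison were used to pick the genes, so its values are a description and nothing is read from the counts. For the change to day 1, 0 of 6 probe sets differed between transgenic and wild-type skin past the threshold, against 0.367% of all probe sets, and the differences ran from 0.21 to 1.08. For the change to day 7, all 6 were smaller in transgenic skin past the threshold, against 9.71% of all probe sets in that direction and 20.6% in either. Among the 6 is Klk1b27, which would not have cleared the filter without the wild-type day 7 arrays. The transgenic change minus the wild-type change was -1.56, -1.74 and -1.36 for Klk1 (1415837_at, 1448107_x_at and 1455977_x_at), -2.17 for Klk1b21, -2.15 for Klk1b24 and -2.93 for Klk1b27, the last being mostly below the 40th percentile. Day 0 readings near 0 enter these values: with 8 added in place of 32, 1415837_at was -0.93 and 1448107_x_at -1.23, and both missed the threshold. So did 1455977_x_at without any further scaling, with no filter, and on leaving out any of 6 arrays, which were replicates 1 and 2 of transgenic day 0, replicate 2 of transgenic day 7, replicates 2 and 3 of wild-type day 0, and replicate 1 of wild-type day 7.

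Elsewhere in the cluster few genes gave signal. Of the 10 other Klk1b genes, 5 have a probe set of their own: Klk1b1, Klk1b5, Klk1b8, Klk1b11 and Klk1b16. All were below the 40th percentile on every array and could not be tested. Klk1b1 read 115 and 105 on the wild-type day 7 arrays and at most 59.9 elsewhere, with a log2 difference from day 0 of 1.97 in wild-type and 0.06 in transgenic skin at day 7. For the other 4 the day 7 difference stayed between -0.0055 and 0.27 in transgenic skin and between -0.42 and 0.60 in wild-type skin. Klk1b5, the neighbour of Klk1 with its start site at -8.886 kb, is thus among the dim genes.

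Egfbp2, another gene of the family, was below the 40th percentile on every array too (1421788_x_at). Another 2 probe sets are each annotated to 2 genes of the family at once and are credited to neither. The first, 1419090_x_at of Klk1b26 and Egfbp2, read 2.90 to 15.6 over the 16 arrays, with day differences of 0.04 to 0.24 on the log2 scale, all below the 40th percentile. The second, 1425182_x_at of Klk1b9 and Klk1b22, read 31.4 and 7.02 in transgenic skin at day 0, 135, 537 and 372 at day 1, and 197, 185 and 205 at day 7. In wild-type skin it read 6.73, 4.52 and 4.20 at day 0, 207, 234.3 and 74.0 at day 1, and 1119 and 1174 at day 7. For 1425182_x_at this is the same picture as for the 4 genes, with transgenic replicate 2 highest at day 1 and wild-type day 7 above all. It was not tested, because it has no single symbol.

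**Figure D3:**
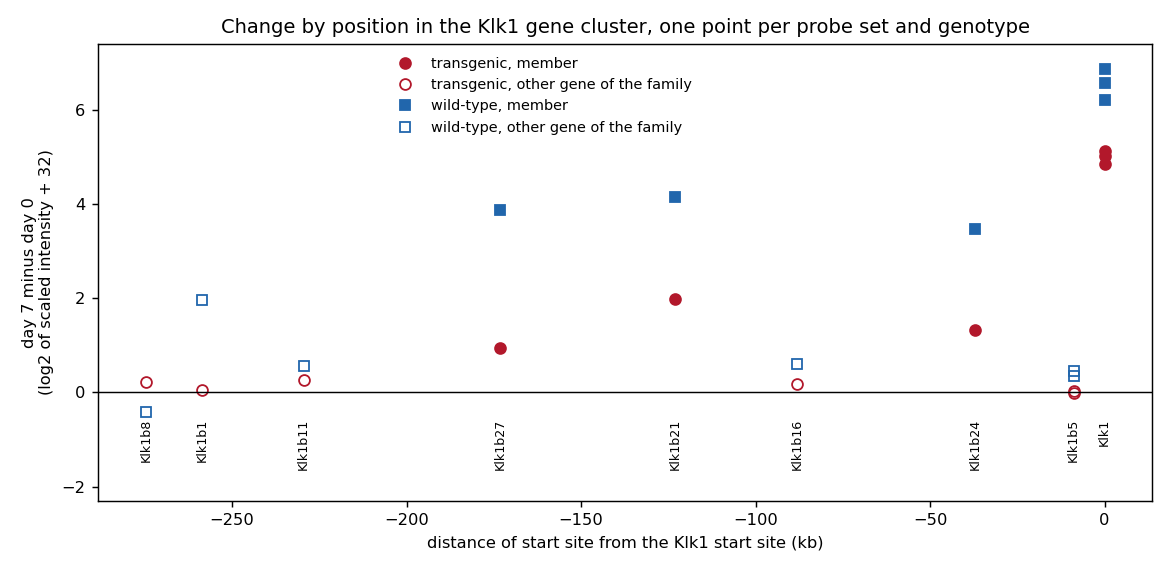
Day 7 minus day 0 (log2 of scaled intensity + 32) against the distance of each gene's start site from that of Klk1 in kb, for probe sets with 1 symbol. Filled points are Klk1, Klk1b21, Klk1b24 and Klk1b27, open points other genes of the family, circles transgenic and squares wild-type. The 4 genes are not side by side: Klk1b5 and Klk1b16, which lie between them, were below the 40th percentile on every array. Klk1b22, Klk1b3 and Klk1b4 also lie between them and have no probe set of their own. The probe set that Klk1b22 shares with Klk1b9, 1425182_x_at, is not shown.

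Over the 16 arrays the 3 Klk1 probe sets correlated at 0.988 to 0.998 on the log2 scale, and the relatives among themselves at 0.941 to 0.969. Klk1 and its relatives correlated at 0.749 to 0.912. Within the 11 treated arrays alone Klk1b24 followed 1448107_x_at at 0.964, Klk1b27 at 0.879 and Klk1b21 at 0.816. The points share arrays, scaling and possibly RNA caught by the same probes, so these values only describe.

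Among 9063 other genes, the 10 whose level was most like that of 1448107_x_at over 16 arrays were Dbn1 (0.937), Col5a2 (0.937), Cmtm7 (0.934), Akr1cl (0.920), Cib1 (0.914), Mtss1 (0.913), Klk1b24 (0.910), Agt (0.908), Snx5 (0.904) and Adam12 (0.902). Klk1b21 was at rank 15 and Klk1b27 at rank 120. In the 11 treated arrays alone, 3 of the 10 kept a correlation above 0.7: Klk1b24, Akr1cl (0.913) and Agt (0.786). The other 7 ranged from -0.02 to 0.66, with Col5a2 (0.66) and Cmtm7 (0.60) the highest. Each was lower than over all 16 arrays, where the step from untreated to treated skin enters too.

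Akr1cl, a member of the aldo-keto reductase family, read 188 and 151.5 in transgenic skin at day 0, 369, 608 and 515 at day 1, and 293, 324 and 401 at day 7. In wild-type skin it read 215, 132 and 147 at day 0, 446, 426 and 322 at day 1, and 679 and 880 at day 7. At day 7 all transgenic arrays lay below both wild-type arrays, with a log2 difference of -1.13 ± 0.21 (SE, limma adjusted p = 0.00079). Agt, which encodes angiotensinogen, the precursor of the vessel-narrowing angiotensins, read 57.4 and 60.8 at day 0, 338, 330 and 267 at day 1, and 153, 149 and 239 at day 7 in transgenic skin. Its wild-type readings were 99.5, 94.7 and 67.1 at day 0, 215, 168 and 261 at day 1, and 400 and 525 at day 7. At day 7 Agt was lower in transgenic skin by -1.23 ± 0.20 (adjusted p = 0.00024), without overlap. Both genes were picked for their likeness to Klk1 on these arrays, so these tests are not independent of it.

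The kinin system that Klk1 feeds gave little signal of its own. Of 12 genes on the array, 6 were below the 40th percentile on every array: the kininogen gene Kng1, the kinin receptors Bdkrb1 and Bdkrb2, the kinin-cutting carboxypeptidase subunits Cpn1 and Cpn2, and the contact factor F12. Of the 6 tested, 0 rose and 1 fell at transgenic day 1, against 8.95% of all probe sets past the threshold, and 0 rose and 1 fell at wild-type day 1, against 21.5%. These were Mme, a membrane protease that degrades kinins, at transgenic day 1 (-0.76) and Ece1, a related protease, at wild-type day 1 (-1.07). At day 7, 3 fell and 0 rose in transgenic skin, against 36.3% of all past the threshold, and 2 fell and 0 rose in wild-type skin, against 9.41%. Serping1, an inhibitor of plasma kallikrein and complement, averaged 1896 ± 155 in transgenic and 3404 ± 31.0 in wild-type skin at day 7 (SD, n = 3 and 2), a log2 difference of -0.84 ± 0.10 (SE, limma adjusted p = 2.12e-05). Ace, the enzyme that inactivates kinins and makes angiotensin II, averaged 186 ± 49.0 and 335 ± 40.4, with -0.77 ± 0.18 (adjusted p = 0.00315).

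None of the tested kallikrein-related peptidases outside the Klk1 group rose at day 1. Of the 5, 0 passed at transgenic day 1 and 3 fell at wild-type day 1, against 8.95% and 21.5% of all probe sets past the threshold. Those 3 were Klk8 (-0.66), Klk11 (-0.39) and Klk7 (-0.34), proteases of epidermal shedding. Klk7 and Klk10, named for transgenic day 1, differed there by -0.25 and -0.66. Klk6, another epidermal kallikrein, rose at day 7 in both genotypes, by 1.41 ± 0.24 in transgenic and 1.31 ± 0.24 in wild-type skin (SE, limma adjusted p = 0.000304 and 0.00423). Klk6 averaged 850 ± 274 in transgenic and 726 ± 155 in wild-type skin at day 7 (SD, n = 3 and 2), and its genotype difference did not pass. Inhibitors of serine proteases were mixed. Of 5 tested, 1 rose and 1 fell at transgenic day 1, Serpina3n by 0.70 and Spint1 by -0.40, and 0 rose and 2 fell at wild-type day 1, Spint1 (-0.47) and Spint2 (-0.42). At day 7 Spint1, an inhibitor on epithelial cells, was higher in transgenic than in wild-type skin by 1.06 ± 0.09 (adjusted p = 1.19e-06).

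Markers of glands that are rich in kallikrein were looked at beside these values. For this and every later list, 8.95% of all probe sets passed at transgenic day 1 and 21.5% at wild-type day 1. Of 15 salivary gland markers on the array, 9 were below the 40th percentile on every array, among them Prol1, Dcpp1, Bpifa2, Lpo, Pip and Smr3a, secretory products of salivary and related glands. Summed over the 15, the level ranged from 2297 to 2801 at transgenic day 1 and from 2295 to 2419 at wild-type day 1. At day 7 it lay at 1438 to 1644 in transgenic skin, against 2754 to 2772 in wild-type skin. Of the 6 tested, 0 passed at transgenic day 1, while 1 rose and 1 fell at wild-type day 1. The one that rose was Aqp5, a water channel of secretory cells in salivary, sweat and lacrimal glands. The one that fell was Smr2 (-0.53), a secreted salivary protein. At transgenic day 1 Smr2 differed by -0.13 and Car6, a secreted carbonic anhydrase, by -0.04. At day 7, 4 of the 6 tested were lower in transgenic than in wild-type skin, against 17.7% of all probe sets. The median of the 6 was -0.91, where all genes had 0.01.

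Aqp5 followed the kallikreins in part. It read 37.2 and 44.6 in transgenic skin at day 0, 107, 117 and 123 at day 1, and 64.1, 91.3 and 151 at day 7. In wild-type skin it read 44.3, 23.7 and 19.5 at day 0, 282, 114 and 117 at day 1, and 226 and 378 at day 7. Many of these readings were below the 40th percentile of their array. They include all day 0 arrays, transgenic day 1 replicate 1, and transgenic day 7 replicates 1 and 2. At wild-type day 1 replicate 1 alone was above it, and replicates 2 and 3 were below theirs (120.2 and 122.7). Aqp5 rose in wild-type skin by 1.65 ± 0.29 at day 1 and 2.43 ± 0.32 at day 7 (SE, limma adjusted p = 0.00158 and 0.000561). In transgenic skin the values were 1.02 ± 0.32 and 0.83 ± 0.32, with adjusted p of 0.0615 and 0.0559. At day 7 it was lower in transgenic than in wild-type skin by -1.33 ± 0.32 (adjusted p = 0.00456), and its correlation with 1448107_x_at was 0.846 over 16 arrays and 0.638 over the 11 treated ones. The part of secretory cells in the kallikrein values was not tested.

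Other gland lists gave few calls at day 1. Of 8 mammary gland markers, 7 were below the 40th percentile on every array, among them the caseins Csn2 and Csn3, and the milk protein gene Lalba, the only one tested, differed by -1.05 at transgenic and -0.26 at wild-type day 1 without passing. Of 10 pancreas and kidney markers 7 were below it, and of the 2 tested, 0 passed at transgenic day 1 (Kap -0.08, Cela1 0.37) and Cela1, an elastase, rose by 0.65 at wild-type day 1 (limma adjusted p = 0.018). Of 7 Leydig cell and testis markers 4 were below it, and of the 3 tested, 2 fell at transgenic day 1: Prm1, a sperm protamine, by 0.99 and Cyp17a1, an enzyme of steroid synthesis, by 0.61 on the log2 scale (adjusted p = 0.0148 and 0.0184). At wild-type day 1, 0 of the 3 passed, with Cyp17a1 at -0.16 and Star, a cholesterol carrier, at 0.19. Of 7 sebaceous gland markers tested, 0 passed at day 1 in either genotype, and Scd1, a fatty acid desaturase, and Mgst1, a glutathione transferase, lay between -0.15 and 0.03. Of 8 tested sweat gland and ductal epithelium markers, 0 rose and 1 fell at transgenic day 1, Slc12a2 (-0.43), and 2 rose and 1 fell at wild-type day 1. The 2 that rose were Aqp5 and Krt8 (1.11), a keratin of simple epithelium, and the one that fell was Scnn1a (-0.45), a sodium channel subunit. The summed sweat gland level was 2448 to 2533 at transgenic day 1. At wild-type day 1 replicate 1 alone was high, at 4988. Replicates 2 and 3 read 2598 and 2744, below the wild-type day 0 arrays (2927 to 3068). At day 7 the sum was 2812 to 3085 in transgenic and 2586 to 3016 in wild-type skin.

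Macrophage markers moved with the kallikreins in part. Of 12 tested, 10 rose at transgenic day 1 and 11 at wild-type day 1, against 5.42% and 11.4% of all probe sets higher past the threshold. Their medians were 0.99 and 1.21 where all genes had -0.03 and -0.02. At day 7, 0 passed in transgenic skin, against 36.3% of all probe sets, and 11 rose in wild-type skin (median 1.08), against 4.96% higher. Also at day 7, 11 of 12 were lower in transgenic than in wild-type skin (median -1.10, all genes 0.01), against 17.7% of all probe sets. Cd68, Aif1 and Mrc1, proteins of macrophages, differed between genotypes at day 7 by -1.18, -1.07 and -1.19 (limma adjusted p = 0.0014, 0.00035 and 0.000212). Msr1, a scavenger receptor, rose by 1.90 at transgenic and 1.26 at wild-type day 1, and differed by -0.43 between the genotypes at day 7 without passing (adjusted p = 0.123).

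Array by array the match was partial. The summed macrophage level was 22313 and 19386 at day 0, 44217, 42265 and 29673 at day 1, and 19686, 19367 and 32904 at day 7 in transgenic skin. In wild-type skin it was 24399, 20458 and 21919 at day 0, 45224, 41190 and 44283 at day 1, and 46186 and 46707 at day 7. Transgenic day 7 replicates 1 and 2 were at the level of untreated skin for these markers, while Klk1 on the same arrays read 1213 and 1100 with 1448107_x_at against about 1 in untreated transgenic skin. Wild-type days 1 and 7 differed little in the sum, while all 6 kallikrein probe sets were higher at day 7. Transgenic day 7 replicate 3, highest in the macrophage sum of its group, was also highest for Klk1b21, Klk1b24, Klk1b27, Akr1cl, Agt and Aqp5, and was the lowest of the 3 for Klk1 in 1415837_at and 1448107_x_at. The part of macrophages in the kallikrein values was not tested. Of 3 neutrophil markers tested, 0 passed at transgenic day 1 (Csf3r -0.06, S100a8 0.17) and 1, Csf3r (0.48), rose at wild-type day 1.

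**Figure D4:**
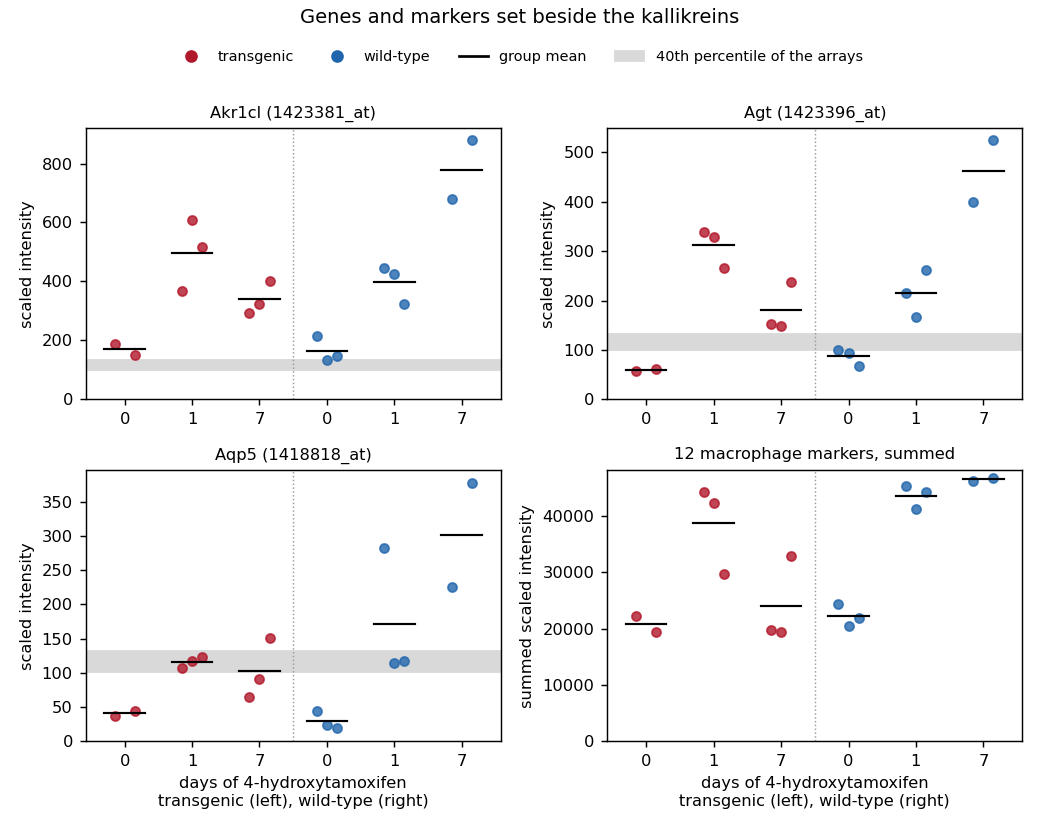
Scaled intensity of Akr1cl, Agt and Aqp5, and the summed scaled intensity of 12 macrophage markers, on each array by day of 4-hydroxytamoxifen (transgenic left, wild-type right). Points are arrays, bars group means and the grey band the range of the arrays' 40th percentiles. Wild-type day 7 is the highest group mean in each panel, and the macrophage sum of transgenic day 7 replicates 1 and 2 is at the day 0 level.

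Genes known to answer to the drug or to hormones were listed as well, since 4-hydroxytamoxifen was given to both genotypes. Of 5 tested oestrogen-responsive genes, 1 rose and 1 fell at day 1 in each genotype. The ones that fell were Esr1 (-1.18) in transgenic skin, where the transgene's receptor domain can add to its signal, and Wnt4 (-0.38), a secreted signal, in wild-type skin. Igf1, a growth factor, rose by 0.91 at transgenic day 1 and 0.59 at wild-type day 1 (limma adjusted p = 0.00935 and 0.0237), and was lower in transgenic than in wild-type skin at day 7 by -1.17 (adjusted p = 0.000235). The progesterone receptor gene Pgr and Greb1, oestrogen targets in the uterus and breast, were below the 40th percentile on every array. Of 12 drug metabolism genes, 0 rose and 3 fell at transgenic day 1, and 0 rose and 6 fell at wild-type day 1. In the same comparisons 3.53% and 10.1% of all probe sets fell past the threshold. Cyp2e1, a cytochrome P450 of solvent and drug oxidation, fell by 1.09 and 0.71 on the log2 scale at transgenic and wild-type day 1. The other named ones that fell were the epoxide hydrolase gene Ephx1 (-0.43 and -0.35), the cytochrome P450 gene Cyp1b1 (-0.49 and -0.58) and, in wild-type skin, Cyp2b10 (-0.64).

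Of 9 genes induced by steroid hormones, 1 rose at transgenic day 1, Errfi1 (1.36), an inhibitor of EGF receptor signalling, and 0 rose and 4 fell at wild-type day 1, among them Dusp1 (-0.74), a phosphatase of MAP kinases, Tsc22d3 (-0.66) and the transcription factor gene Klf9 (-0.30). Tsc22d3, a glucocorticoid target, was higher in transgenic than in wild-type skin at day 1 by 1.07 (limma adjusted p = 0.0028). The part of the drug or of hormones in the kallikrein values was not tested. Over the 83 tested genes of all these lists, 13 rose and 9 fell at transgenic day 1, against 8.95% of all probe sets past the threshold. At wild-type day 1, 16 rose and 19 fell, against 21.5%. At day 7, 7 rose and 32 fell in transgenic skin, against 36.3%, and 16 rose and 15 fell in wild-type skin, against 9.41%. From day 1 to day 7, 13 rose and 38 fell in transgenic skin, against 43.1% of all probe sets past the threshold, and 4 rose and 4 fell in wild-type skin, against 2.33%.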

How the data were processed

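Per the labels, biotin-labelled cRNA from total RNA of skin went onto Affymetrix arrays of the Mouse Expression Set 430 A. The deposited values are linear intensities, 1 for each probe set, and the summarising software is not given in the sources used. Arrays were grouped by genotype and day from their titles.

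Every array was scaled to a common trimmed mean (2% removed at each end, factors 0.825 to 1.26), and log2(intensity + 32) was taken, which understates changes from low intensities. Of 20380 probe sets with exactly 1 symbol in the platform annotation, 13890 (9064 genes) exceeded the array's 40th percentile on 2 arrays or more. A limma 3.58.1 model (R 4.3.3) with a mean for each group took in all 16 arrays, with a variance trend and 10 residual degrees of freedom. Tests were two-sided, adjusted by Benjamini-Hochberg over all 13890 probe sets within each of 11 comparisons. A list gene stands for its brightest tested probe set. The number of arrays limits the precision. In simulated data 200 of 13890 probe sets were changed in each of 5 runs. The day 7 genotype test recovered 46%, 82.7% and 99.4% of those changed 1.5-fold, 2-fold and 4-fold. The test of the change to day 7 recovered 16.7%, 57.9% and 96.1%, and the day 1 genotype test recovered 57.6%, 91.3% and 100%. In the real data many more passed in the 2 day 7 tests (5137 and 2859), so these shares hold for the simulated setting alone.

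Members and lists were chosen with earlier results of these data known. Named are all probe sets of the 4 genes, up to 3 genes of each list with the smallest p past the threshold at day 1 of each genotype (otherwise the 2 brightest), and the 10 genes most like Klk1. Outside this rule, the other probe sets of the family are given as a whole, and Serping1, Ace and Klk6 were chosen after their values were seen. Krt14, Krt10 and Esr1 check the tissue and the transgene. Genes below the filter are named by their list. Alternatives were no further scaling, quantile normalization, an added value of 8 or of 4 times 32, a stricter filter (60th percentile, 3 arrays) or none, the brightest probe set of each gene, no variance trend, only the groups compared, a replicate block, and leaving out each array. Promoter stretches come from RefSeq and were aligned locally with Biopython 1.88 under Python 3.11.15; figures used matplotlib 3.10.9.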

Additional observations from a re-analysis of the deposited data

Results flagged for a closer look

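The change from day 0 to day 7 differed between transgenic and wild-type skin in the interaction term of all 6 kallikrein probe sets, against 20.6% of all probe sets. The genes were picked on these changes, so this is a description and nothing is read from the count. On the log2 scale the transgenic change minus the wild-type change was -1.56 for Klk1 in 1415837_at, -1.74 in 1448107_x_at and -1.36 in 1455977_x_at. It was -2.17 for Klk1b21, -2.15 for Klk1b24 and -2.93 for Klk1b27. The probe sets may share RNA, so these are not 6 independent results.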

How the results depend on the processing

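In 10 alternatives and 16 fits without 1 array, the number of kallikrein probe sets past the threshold (Klk1b27 included) was 0 at day 0, at day 1 and for the change to day 1 throughout. At day 7 it was 5 to 6 without 1 array, all 5 left by the stricter filter, all 4 left with the brightest probe set of each gene, and otherwise 6. For the change to day 7 it was 5 to 6 without 1 array, 5 without further scaling, 5 with no filter, 4 with 8 added, all 5 left by the stricter filter, all 4 left with the brightest probe sets, and otherwise 6. Klk1b27 would not clear the filter without the wild-type day 7 arrays, so its calls in these day 7 counts are a description. The calls that were lost are given with the results. Some differences near 0 changed sign. At day 0 Klk1b24 was 0.042 without further scaling. Leaving out 1 array in turn, Klk1b21 ranged from -0.056 to 0.34 and 1455977_x_at from -0.031 to 0.25 at day 0, Klk1b21 from -0.13 to 0.56 for the change to day 1, and from -0.36 to 0.33 for transgenic day 7 minus day 1. The day changes of 1448107_x_at with 8 and with 4 times 32 added were 7.87 and 4.11 (transgenic day 1), 6.97 and 3.28 (transgenic day 7), 6.57 and 3.65 (wild-type day 1), and 8.19 and 5.21 (wild-type day 7).

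Of 83 list genes, those past the threshold numbered 22 at transgenic day 1, 35 at wild-type day 1, 31 at wild-type day 7 and 8 for wild-type day 7 against day 1. Without further scaling they were 8, 13, 15 and 3. With only the groups compared, 14 passed at transgenic day 1, and with no filter 5 passed for wild-type day 7 against day 1. Leaving out 1 array gave 5 to 25, 22 to 37, 13 to 34 and 0 to 9 in the same order. Over all 13890 probe sets, without further scaling 196 passed at transgenic day 1 (main 1243), 2446 at transgenic day 7 (5042), 2762 for transgenic day 7 against day 1 (5984), 734 and 282 at wild-type days 1 and 7 (2992 and 1307), 88 for wild-type day 7 against day 1 (323), 14 and 2372 for the genotypes at days 1 and 7 (148 and 5137), and 14 and 812 for the changes to days 1 and 7 (51 and 2859). With only the groups compared, 490 passed at transgenic day 1, 2 and 25 for the genotypes at days 0 and 1 (1 at day 0 otherwise), and 2 for the change to day 1, where no filter left 15, the stricter filter 33, the brightest probe sets 25, quantile normalization 34 and the replicate block 8. No filter left 91 for the genotypes at day 1, and the block 213 for wild-type day 7 against day 1. Leaving out 1 array gave 3422 to 5333 for the genotypes at day 7 and 1900 to 3109 for the change to day 7, both lowest without wild-type day 7 replicate 1, where wild-type day 7 was also lowest (320, and 41 against day 1). The lowest counts elsewhere were 250 at transgenic day 1 and 0 for the change to day 1 (without transgenic day 0 replicate 2), and 1569 at wild-type day 1 and 18 for the genotypes at day 1 (without wild-type day 1 replicate 1). Of the probe sets that passed without further scaling, 41.4% were higher for the change to day 7 (main 52.8%), 34.7% at transgenic day 7 (52.9%), 66.3% at wild-type day 7 (52.7%) and 87.1% at wild-type day 1 (53.0%), and the median of all probe sets was -0.105 at transgenic day 7 (main 0.033) and 0.157 for the genotypes at day 0 (0.0089). The cause was not tested.

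Deviations from the group means correlated at -0.2434 to 0.2228 over 36 pairs of arrays with the same replicate number. For different numbers they correlated at -0.2043 to 0.2434 over 70 pairs. Deviations from means of 2 or 3 arrays are tied to each other, so this check cannot decide whether the numbers mark shared handling. With the replicate number as a block, 1448107_x_at at day 7 was -2.24 (limma adjusted p = 0.000104). The kallikrein calls, Klk1b27 included, were the same in number (6 at day 7 and 6 for the change to day 7). In this fit 3 list genes passed for wild-type day 7 against day 1. Values below the 40th percentile, which include all day 0 readings, limit what can be said of Klk1b27 and of the size of the changes from day 0.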
